A study of Mus musculus with 12 samples.

Results

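The genes described here encode enzymes that write or erase marks on histones and DNA, with the core partners of 2 of them, in mouse regulatory T cells (Tregs). They were taken from the table of read counts by symbol: every gene whose symbol starts with Kdm, Kmt, Setd, Hdac, Sirt, Tet, Dnmt or Prmt followed by a digit, and Ezh1, Ezh2, Eed, Suz12, Uhrf1, Crebbp and Ep300. This gave 73 of the 24421 symbols in the table, 34 of them grouped as writers and 39 as erasers. Of the 73, 69 passed the filter on low counts and were tested among 12461 genes. Dnmt3l, Kdm5d and Prmt8 had a count of 0 in every library. Kdm5d lies on chromosome Y, so its count also depends on the sex of the mice. Dnmt3aos, an antisense transcript at Dnmt3a, stayed at or below 0.113 CPM (counts scaled to library size). Setd8 and Prmt10 are the older symbols of Kmt5a and Prmt9.

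The study asked what loss of CD25, which is the alpha subunit of the high-affinity interleukin-2 receptor, changes in central and effector Tregs. The 12 RNA-seq libraries form 4 groups of 3: CD25KO effector Tregs (KO eTreg), CD25WT effector Tregs (WT eTreg), CD25KO central Tregs (KO cTreg) and CD25WT central Tregs (WT cTreg). All mice carried R26tomato+/+, a tdTomato reporter, and Foxp3eGFPERT2+/+, an allele of Foxp3, the gene that defines Tregs. By its name this allele joins eGFP with ERT2, and ERT2, not eGFP, is the part that responds to tamoxifen. All mice received 2 mg/kg tamoxifen intraperitoneally on 5 days, with cells collected after a further 10 days. The CD25 allele is given as CD25FL/FL on the WT libraries and CD25WT/WT on the KO libraries, which is opposite to the titles. Groups therefore follow the titles and cell types, which the Il2ra counts below go with. Cells positive for CD4, GFP and tdTomato were sorted as CD62Lhi (cTreg) or CD62Llo (eTreg), and KO cells also as CD25lo. The deletion and this extra gate cannot be told apart in KO against WT, and CD25 loss below stands for both. Each library pooled spleen and lymph nodes of 2 to 3 mice. No label says that libraries of one group came from separate experiments, so p-values measure the spread between these libraries.

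Histone marks are laid down by methyltransferases and acetyltransferases and taken off by demethylases, deacetylases and sirtuins, while DNA methylation is written by DNMT enzymes and oxidised by TET enzymes. Trimethylation of histone H3 at lysine K27, the mark of the Polycomb complex PRC2, goes with silent genes, and methylation at lysine K4 and acetylation go with active ones. In mouse Tregs the Foxp3 enhancer is kept free of DNA methylation by TET enzymes, and several deacetylases are known to act on the Foxp3 protein.

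The promoters of 4 members are shown first, those with the widest gaps between KO and WT cTreg among the members called there, 2 of members that rose (Ezh2, Kdm2b) and 2 of members that fell (Dnmt3b, Prmt3). Each is the 250 bases before the RefSeq gene start, 5′ to 3′ on the strand of the gene, on GRCm38.p6. The GENCODE vM21 annotation, used for gene coordinates below, places some starts elsewhere. Its Ezh2 and Kdm2b genes begin at 47595341 and 122989823, so the windows of these genes lie inside them. Its Prmt3 gene begins at 49778346, so the end of that window reaches into it. Capitals mark the only motif found in them of the 6 searched, an NRF1-type CGCANGCG, read on either strand.
Ezh2 promoter, chr6:47595031-47595280, minus strand: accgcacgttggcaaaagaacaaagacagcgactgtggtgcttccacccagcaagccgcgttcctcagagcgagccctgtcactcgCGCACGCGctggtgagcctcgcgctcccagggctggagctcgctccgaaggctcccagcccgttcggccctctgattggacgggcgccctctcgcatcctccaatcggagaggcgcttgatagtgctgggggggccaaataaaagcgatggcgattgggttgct
Kdm2b promoter, chr5:122989100-122989349, minus strand: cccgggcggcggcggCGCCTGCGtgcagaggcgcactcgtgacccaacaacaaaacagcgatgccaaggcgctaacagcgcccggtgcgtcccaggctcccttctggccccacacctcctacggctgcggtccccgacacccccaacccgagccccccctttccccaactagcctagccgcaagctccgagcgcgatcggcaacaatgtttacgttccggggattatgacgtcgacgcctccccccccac
Dnmt3b promoter, chr2:153649199-153649448, plus strand: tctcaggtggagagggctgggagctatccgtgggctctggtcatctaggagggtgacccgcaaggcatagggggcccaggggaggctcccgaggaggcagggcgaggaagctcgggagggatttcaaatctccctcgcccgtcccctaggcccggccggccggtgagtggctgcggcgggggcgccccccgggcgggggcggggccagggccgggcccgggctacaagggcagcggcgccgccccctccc
Prmt3 promoter, chr7:49778108-49778357, plus strand: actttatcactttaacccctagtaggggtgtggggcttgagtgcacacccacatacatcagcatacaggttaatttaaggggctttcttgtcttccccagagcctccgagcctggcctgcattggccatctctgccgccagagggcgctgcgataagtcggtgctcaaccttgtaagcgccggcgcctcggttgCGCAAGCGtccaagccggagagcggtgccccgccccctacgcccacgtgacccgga
All 4 are rich in G and C, at 63.6% for Ezh2, 68.0% for Kdm2b, 75.2% for Dnmt3b and 60.4% for Prmt3, with 23, 27, 21 and 17 CpG sites in that order of genes. The 62 members with a RefSeq promoter had a median of 60.4% GC and 16.5 CpG sites, against 52.0% and 6.0 over 27025 promoters. The motif TTCNNNGAA, the core bound by STAT factors such as STAT5 downstream of the interleukin-2 receptor, was found on either strand in 3 of the 62 members (4.84%), against 7.18% of all promoters. The ETS-type CCGGAAG was found in 8 members (12.9%), against 7.05% of all, and the NRF1-type CGCANGCG in 10 (16.1%), against 6.94% of all. Of the E2F-type motifs, TTTCCCGC was in 2 members (3.23%), against 0.929% of all, TTCCCGCC in 2 (3.23%), against 1.88%, and TTTGGCGC in 0, against 0.437%. The E2F-type motifs overlap in sequence, and a match describes letters, not binding. All motifs but the STAT-type one contain a CpG, and the promoters of members held more CpG sites. The part of this in the shares was not tested. For members the RefSeq promoter nearest the GENCODE start was used. The set of all promoters took the first listed for each gene, expressed or not.

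Il2ra, the targeted gene, had 125, 116 and 132 CPM in KO eTreg, against 464, 562 and 542 in WT eTreg. In cTreg Il2ra had 122, 112 and 112 CPM in KO and 576, 523 and 579.8 in WT libraries. Every KO library was below every WT library. Total counts were 14567313 to 19121577 per library. The ribosomal precursor Rn45s took 3.194% to 3.318% of counts in KO eTreg and 4.111% to 4.344% in WT eTreg, against 18.09% to 18.46% in KO cTreg and 22.36% to 24.37% in WT cTreg. A list of 6 Treg genes summed to 4072 to 4262 CPM in the eTreg libraries, against 2694 to 2846 CPM in the cTreg libraries, and 7 central T cell genes to 1226 to 1446 CPM, against 3556 to 3998 CPM. A list of 8 effector Treg genes such as Icos and Klrg1 summed to 1347, 1609 and 1456 CPM in KO eTreg, 1221, 1244 and 1140 in WT eTreg, 727, 812 and 802 in KO cTreg, and 302, 328 and 273 in WT cTreg. Markers of other cells summed over the 12 libraries to 7.78 to 15.6 CPM (B cell), 7.45 to 27.1 (CD8 T and NK), 18.6 to 34.7 (myeloid), 0.831 to 15.1 (erythroid) and 110.0 to 278.7 (stroma and endothelium, of which Pecam1 alone 108 to 278). A list of 16 cell cycle genes summed to 597.9, 967 and 745 CPM in KO eTreg, 567, 833 and 629 in WT eTreg, 834, 1335 and 1106 in KO cTreg, and 774, 640.4 and 663 in WT cTreg. In bulk RNA, fewer cells of a type and less RNA per cell cannot be told apart.

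Levels per length differed widely among the members. Over all 12 libraries, CPM per kilobase of the longest transcript were highest for Kmt2d at 72.1, Kmt2e at 72.00, Hdac1 at 67.1, Kmt2a at 65.9 and Setd5 at 61.3. They were lowest among tested members for Hdac9 at 0.703, Kdm4d at 0.894, Sirt3 at 1.49 and Hdac11 at 1.59. The H3K4 writers led the families on summed CPM, a sum not corrected for length, at 3585 to 5029 CPM per library.

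**Figure D1:**
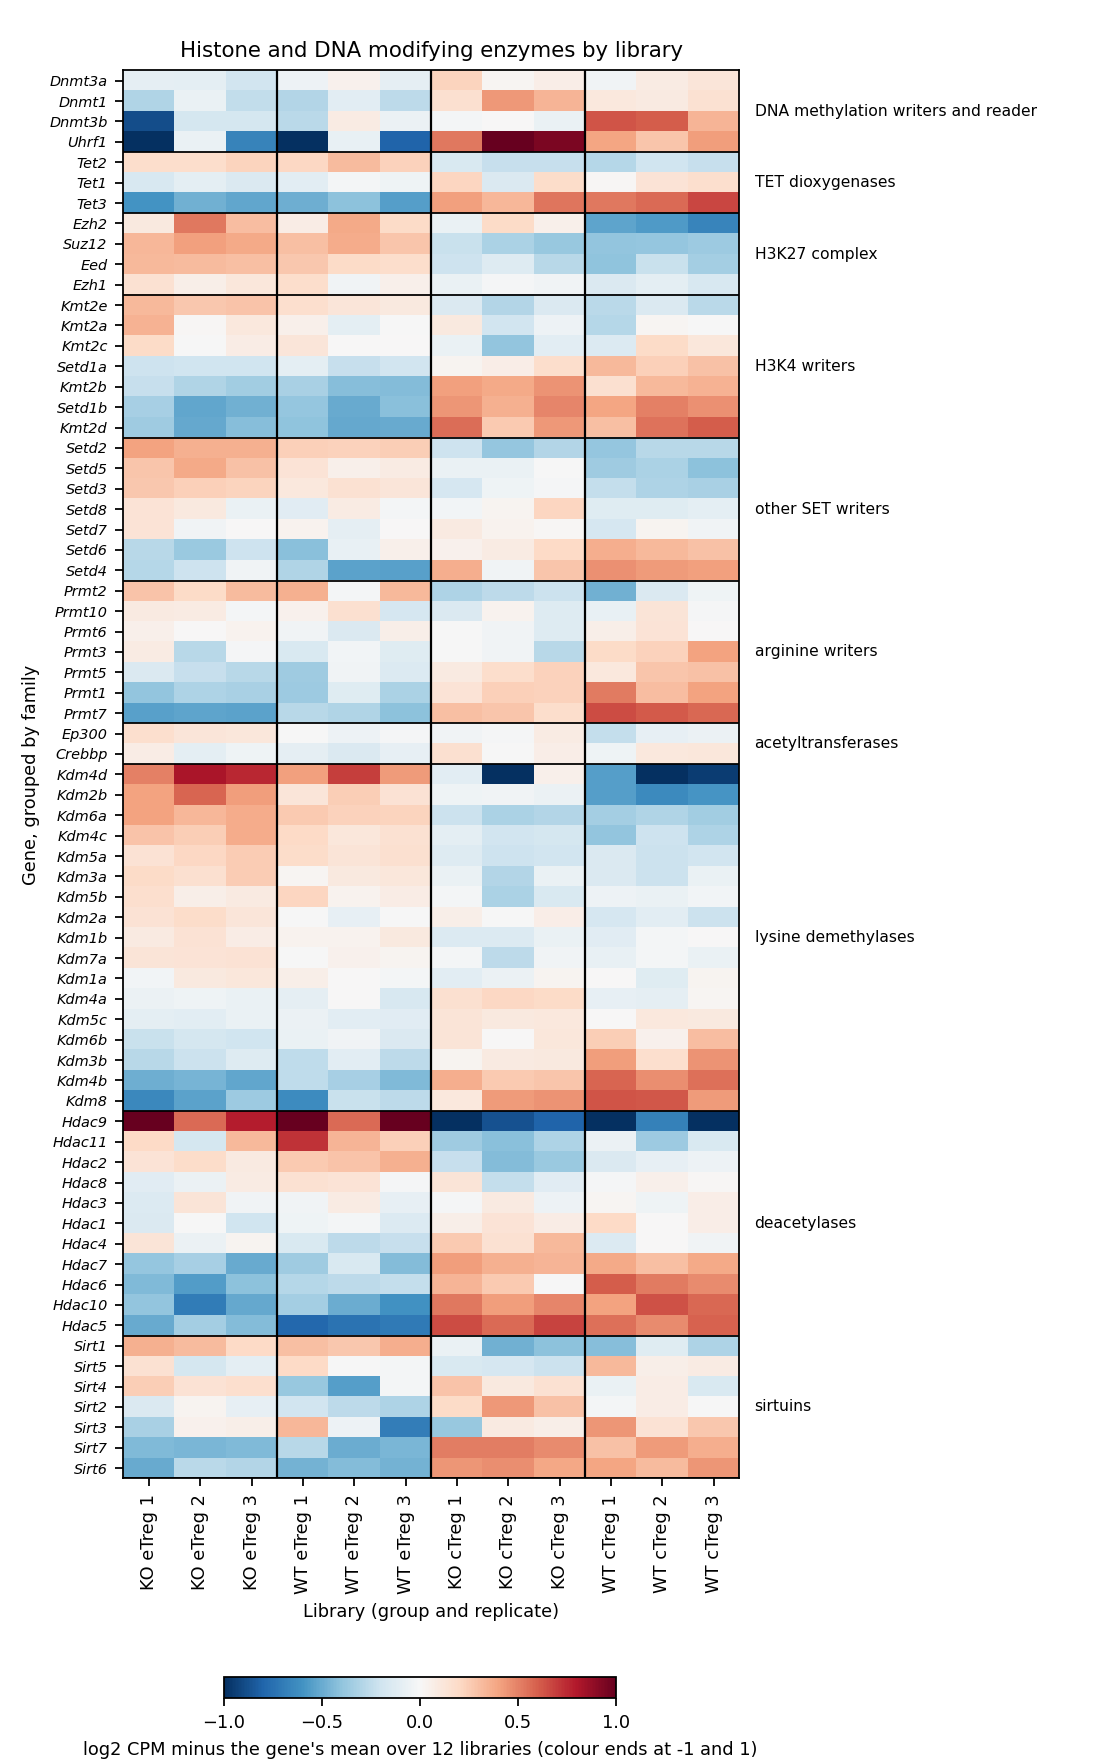
Log2 CPM of the 69 tested members in each of the 12 libraries, as the difference from the mean of the gene over all libraries, with members ordered by family and libraries by group; colours end at a difference of 1 in either direction. The eTreg and cTreg columns differ for most members, while KO and WT columns of one subset differ for fewer, such as Ezh2 and Kdm2b in cTreg.

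Loss of CD25 moved the members called in cTreg by at most 1.57-fold. In KO cTreg 17 of 69 members (24.6%) passed the test against WT cTreg, 8 higher and 9 lower, beside 27.5% of all genes tested (14.8% higher, 12.6% lower). The largest rises among the calls were in Ezh2, at 1.57-fold, and Kdm2b, at 1.46-fold, and the largest falls in Dnmt3b, at 1.47-fold lower, and Prmt3, at 1.30-fold lower. The median log2 fold change over the 69 was 0.00, the same as over all genes, and the median size of change was 0.13, against 0.17 over all genes. Only Ezh2 and Uhrf1 reached a 1.5-fold difference (2 members, 2.9%), against 16.5% of all genes, and Uhrf1 did not pass the test. KO and WT libraries did not overlap for 31 members (44.9%), against 40.4% of all genes. The effector Treg genes moved beside these: all 8 were called in KO cTreg, 7 higher and 1 lower, with a median log2 fold change of 1.89, and 4 in KO eTreg, all higher, with a median of 0.44. Their part in the KO effects on the members was not tested. Called here means an adjusted p under 0.05 in the edgeR quasi-likelihood test, Benjamini-Hochberg adjusted over 12461 genes, and log2 fold changes are given with their SE.

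In KO eTreg 5 of 69 members (7.25%) passed against WT eTreg, all 5 higher, beside 6.65% of all genes tested (3.25% higher, 3.4% lower). They were Hdac5, Kdm2b, Hdac4, Setd5 and Kdm2a, at 1.25, 1.23, 1.19, 1.17 and 1.13-fold. No member reached 1.5-fold among the 69, against 6.16% of all genes. KO and WT libraries did not overlap for 22 members (31.9%), against 25.2% of all genes. Of these 5, 4 (all but Hdac5) were also among the 17 called in cTreg. Same-numbered KO and WT eTreg libraries deviated together, and a block on that number, fitted to the 6 eTreg libraries, called 12 members (10 higher, 2 lower), beside 14% of all genes. Those 12 held all 5 calls, with Ep300, Hdac2, Kdm6a, Kdm6b, Kmt2a, Kmt2e and Setd2 added. When an offset for transcript length and GC joined the block, 9 members were called (8 higher, 1 lower), beside 13.1% of all genes. These held all 5 calls and 4 others, so not every call added by the block stood.

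A difference between the KO effects in the 2 subsets, eTreg minus cTreg, was called for 0 of 69 members by edgeR's quasi-likelihood test, beside 3.8% of all genes (0.803% higher, 3% lower). All 8 effector Treg genes were called there, 1 higher and 7 lower. At an unadjusted p under 0.05 there were 9 such members. The DESeq2 Wald test called 1, Ezh2, and limma-voom 0. For Ezh2 the difference was -0.55 ± 0.15 (adjusted p = 0.0684), for Kdm2b -0.24 ± 0.077 (adjusted p = 0.0964) and for Prmt3 0.41 ± 0.13 (adjusted p = 0.102). Setd4 had 9.24, 9.77 and 11.03 CPM in KO eTreg against 9.14, 7.75 and 7.69 in WT eTreg, and 14.5, 11.03 and 13.7 in KO cTreg against 15.6, 15.2 and 15.1 in WT cTreg. Its KO libraries lay above all WT libraries in eTreg and below them all in cTreg, yet neither effect passed, at 0.29 ± 0.12 (adjusted p = 0.192) in eTreg and -0.23 ± 0.12 (adjusted p = 0.183) in cTreg, nor did their difference, at 0.52 ± 0.17 (adjusted p = 0.117).

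**Figure D2:**
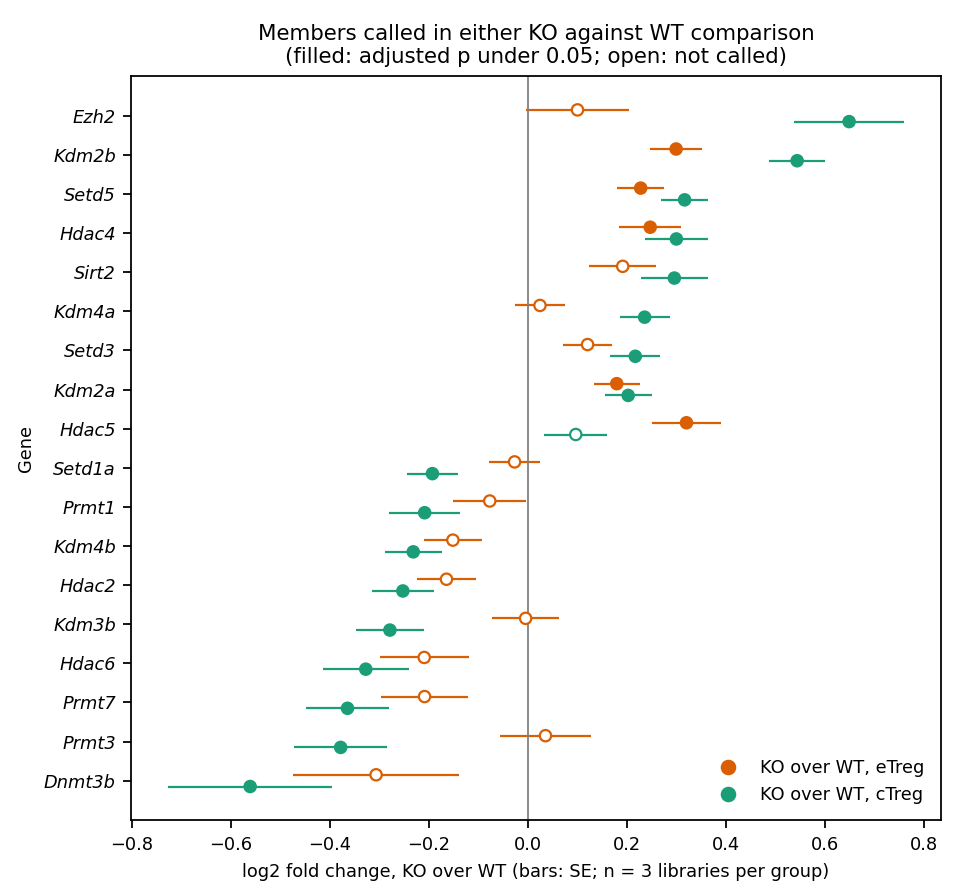
Log2 fold change of KO over WT with its SE for the 18 members called in either subset, eTreg in orange above cTreg in green; filled points were called. Ezh2 and Kdm2b lie farthest to the right in cTreg, Dnmt3b farthest to the left, and the 5 filled eTreg points are all above 0.

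Between the subsets, most members differed. In KO cells 55 of 69 members (79.7%) were called between eTreg and cTreg, 26 higher and 29 lower in eTreg, beside 72% of all genes (36.1% higher, 35.8% lower). In WT cells 51 (73.9%) were called, 22 higher and 29 lower, beside 71.5% of all genes (35.7% higher, 35.8% lower). Libraries did not overlap for 55 members (79.7%) in each genotype, against 74.6% of all genes in KO and 74.9% in WT cells. At least a 2-fold difference was seen for 5 members (7.25%) in KO cells, against 20.5% of all genes, and for 5 (7.25%) in WT cells, against 21.6%. All 4 tested genes of the H3K27 complex were higher in eTreg in both genotypes, and 3 of the 4 tested DNA methylation genes were lower in each. Much of this difference followed the GC content of the transcripts, as given at the end, so subset differences below are followed by its value from a fit with an offset for transcript length and GC in each library. The KO and subset comparisons share libraries, so they are not independent of each other.

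Among the DNA methylation genes, Dnmt3b fell in KO cTreg and none of the 4 tested was called in KO eTreg. Dnmt3b (mm10 chromosome 2, 153649450 to 153687730), which methylates new sites, had 4.73, 7.82 and 7.81 CPM in KO eTreg, against 7.33, 9.36 and 8.49 in WT eTreg. In cTreg Dnmt3b had 8.74, 8.90 and 8.44 CPM in KO and 13.7, 13.6 and 11.2 in WT libraries. The KO cTreg libraries were all below the WT cTreg libraries, while the eTreg groups overlapped. The KO effect was -0.56 ± 0.17 (adjusted p = 0.0182) in cTreg, and it lost its call without WT cTreg replicate 1 (adjusted p = 0.0638), WT cTreg replicate 2 (0.0581) or KO cTreg replicate 3 (0.0617). In eTreg it was -0.31 ± 0.17 (adjusted p = 0.343). The subset difference of Dnmt3b was -0.35 ± 0.17 (adjusted p = 0.0713) in KO and -0.61 ± 0.16 (adjusted p = 0.00311) in WT cells, and the WT call was lost with the offset, at -0.36 ± 0.16 (adjusted p = 0.0684), with -0.10 ± 0.17 (adjusted p = 0.636) in KO cells. Dnmt3a, the other enzyme of this kind, had 178, 177 and 166 CPM in KO eTreg, against 183, 195 and 178 in WT eTreg. In cTreg Dnmt3a had 221, 192 and 198 CPM in KO and 185, 200.1 and 207 in WT libraries. Its KO and WT groups overlapped in both subsets, at 0.046 ± 0.061 (adjusted p = 0.622) in cTreg and -0.093 ± 0.060 (adjusted p = 0.446) in eTreg. The subset difference of Dnmt3a was -0.23 ± 0.061 (adjusted p = 0.00281) in KO and -0.090 ± 0.061 (adjusted p = 0.193) in WT cells, and -0.21 ± 0.053 (adjusted p = 0.00344) and -0.078 ± 0.053 (adjusted p = 0.222) with the offset.

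Dnmt1, which copies methylation at replication, had 168, 197 and 174 CPM in KO eTreg, against 168, 192 and 172 in WT eTreg. In cTreg Dnmt1 had 231, 278 and 261 CPM in KO and 222, 219.5 and 229.8 in WT libraries. The 3 KO cTreg libraries were the highest of all 12, but the KO effect there missed the threshold, at 0.20 ± 0.074 (adjusted p = 0.0546). Uhrf1 (mm10 chromosome 17, 56303321 to 56323486), the reader that brings Dnmt1 to replicated DNA, had 13.3, 26.3 and 17.3 CPM in KO eTreg, against 11.4, 26.2 and 15.8 in WT eTreg. In cTreg Uhrf1 had 39.9, 71.7 and 53.2 CPM in KO and 36.2, 33.5 and 36.9 in WT libraries. Its KO cTreg libraries were all above its WT cTreg libraries and spread widely, and the KO effect was 0.63 ± 0.34 (adjusted p = 0.212). Both fell in eTreg against cTreg, Uhrf1 at -1.53 ± 0.35 (adjusted p = 0.00354) in KO and -0.98 ± 0.36 (adjusted p = 0.0359) in WT cells, and Dnmt1 at -0.52 ± 0.074 (adjusted p = 1.05e-05) and -0.33 ± 0.074 (adjusted p = 0.000757) in the same order. The WT call of Uhrf1 was lost without any 1 of the WT cTreg libraries or without WT eTreg replicate 1 or 3, at adjusted p of 0.0626 to 0.0998. With the offset these became -1.23 ± 0.35 (adjusted p = 0.0152) and -0.68 ± 0.36 (adjusted p = 0.139) for Uhrf1 and -0.25 ± 0.078 (adjusted p = 0.0146) and -0.080 ± 0.079 (adjusted p = 0.407) for Dnmt1. Of the 16 cell cycle genes, 4 were higher and 0 lower in KO cTreg against WT cTreg (25%, beside 27.5% of all genes), with a median log2 fold change of 0.90, and 0 were called in KO eTreg against WT eTreg. Between subsets 1 was higher and 11 lower in KO cells (75%, beside 72% of all genes), and 2 were higher and 3 lower in WT cells (31.2%, beside 71.5%). Their part in the levels of Uhrf1, Dnmt1 and Ezh2 was not tested.

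No TET enzyme was called for CD25 loss, while all 3 were called between the subsets in KO cells and 2 in WT cells. Of all genes, 72% were called between the subsets in KO and 71.5% in WT cells. Tet3 (mm10 chromosome 6, 83362373 to 83459084) had 227, 246 and 239 CPM in KO eTreg, against 245, 259 and 235 in WT eTreg. In cTreg Tet3 had 456, 432 and 498 CPM in KO and 495, 509 and 546 in WT libraries. All 6 eTreg libraries stood below all 6 cTreg libraries. Tet3 fell in eTreg, at -0.96 ± 0.060 (adjusted p = 5.57e-10) in KO and -1.07 ± 0.060 (adjusted p = 1.38e-10) in WT cells, and at -0.84 ± 0.055 (adjusted p = 3.6e-09) and -0.97 ± 0.056 (adjusted p = 3.37e-10) with the offset. Its KO effect was -0.16 ± 0.059 (adjusted p = 0.0537) in cTreg, -0.20 ± 0.055 (adjusted p = 0.0114) with the offset, and -0.053 ± 0.060 (adjusted p = 0.696) in eTreg. Tet2 had 167, 167 and 173 CPM in KO eTreg, against 171, 184 and 174 in WT eTreg. In cTreg Tet2 had 133, 127 and 126 CPM in KO and 122, 129 and 126 in WT libraries. Every eTreg library was above every cTreg library. The rise of Tet2 in eTreg, at 0.40 ± 0.047 (adjusted p = 1.07e-06) in KO and 0.49 ± 0.047 (adjusted p = 8.64e-08) in WT cells, was lost with the offset, at -0.031 ± 0.044 (adjusted p = 0.576) and 0.075 ± 0.044 (adjusted p = 0.16). Tet1, whose transcript is long and poor in GC, had 32.9, 34.3 and 33.1 CPM in KO eTreg, against 34.03, 36.1 and 35.5 in WT eTreg. In cTreg Tet1 had 42.5, 33.2 and 41.5 CPM in KO and 36.97, 40.2 and 41.3 in WT libraries. The fit without the offset gave a smaller difference for Tet1, at -0.22 ± 0.083 (adjusted p = 0.0234) in KO, lost without KO cTreg replicate 1 or 3 or KO eTreg replicate 1 or 3, and -0.16 ± 0.083 (adjusted p = 0.0851) in WT cells, than the offset did, at -0.84 ± 0.073 (adjusted p = 7.52e-08) and -0.77 ± 0.073 (adjusted p = 1.37e-07).

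Of the H3K27 complex, only Ezh2 was called for CD25 loss, in cTreg. Ezh2 (mm10 chromosome 6, 47530139 to 47595341), the main catalytic subunit, had 65.8, 88.6 and 76.2 CPM in KO eTreg, against 64.6, 79.9 and 70.4 in WT eTreg. In cTreg Ezh2 had 58.8, 70.3 and 63.7 CPM in KO and 42.6, 41.6 and 38.96 in WT libraries. The WT cTreg libraries were the lowest of the 12, and the KO cTreg libraries reached into the range of the eTreg libraries. Ezh2 rose in KO cTreg at 0.65 ± 0.11 (adjusted p = 0.000748), and its KO effect in eTreg was 0.10 ± 0.10 (adjusted p = 0.67), where the groups overlapped. Its subset difference was 0.81 ± 0.11 (adjusted p = 1.72e-05) in WT cells, 0.45 ± 0.11 (adjusted p = 0.00504) with the offset. In KO cells it was 0.26 ± 0.10 (adjusted p = 0.0409), a call lost when any of 8 libraries was left out (adjusted p up to 0.194), and with the offset it turned to -0.13 ± 0.11 (adjusted p = 0.351).

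The other subunits of PRC2 moved with subset. Suz12, a scaffold subunit, had 188, 199 and 194 CPM in KO eTreg, against 184, 194 and 182 in WT eTreg. In cTreg Suz12 had 128, 119.7 and 115 CPM in KO and 114, 114 and 116 in WT libraries. Eed, which reads the mark, had 72.6, 72.4 and 71.8 CPM in KO eTreg, against 70.1, 66.5 and 65.7 in WT eTreg. In cTreg Eed had 50.4, 53.1 and 48.1 CPM in KO and 43.9, 49.7 and 46.02 in WT libraries. For both, every eTreg library was above every cTreg library. Suz12 rose at 0.68 ± 0.050 (adjusted p = 3.14e-09) in KO and 0.70 ± 0.050 (adjusted p = 2.16e-09) in WT cells, and at 0.11 ± 0.046 (adjusted p = 0.0441) and 0.18 ± 0.047 (adjusted p = 0.00329) with the offset. Eed rose at 0.52 ± 0.058 (adjusted p = 5.51e-07) in KO and 0.53 ± 0.059 (adjusted p = 4.37e-07) in WT cells, and at 0.38 ± 0.058 (adjusted p = 3.62e-05) and 0.41 ± 0.059 (adjusted p = 1.66e-05) with the offset. Ezh1, the alternative catalytic subunit, stood at 0.15 ± 0.054 (adjusted p = 0.0217) in KO, lost without KO cTreg replicate 1 or 3 or KO eTreg replicate 1 or 3, and 0.20 ± 0.055 (adjusted p = 0.00365) in WT cells, and kept its call with the offset, at 0.26 ± 0.052 (adjusted p = 0.000564) and 0.31 ± 0.053 (adjusted p = 0.000101).

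The H3K4 writers, which include the longest transcripts here, were mostly lower in eTreg: 4 of 7 were called lower in each genotype, beside 35.8% of all genes. Another 2 were called higher in KO and 1 in WT cells. The 4 lower ones, Kmt2b, Kmt2d, Setd1a and Setd1b, have 56.96% to 59.09% GC. In the highest of 5 GC bins, which holds them, 73.6% of all genes were lower in KO and 72.6% in WT cells. Kmt2d, which marks enhancers, had 1064, 952 and 1012 CPM in KO eTreg, against 1028, 953 and 959 in WT eTreg. In cTreg Kmt2d had 2001, 1633 and 1838 CPM in KO and 1675, 1975 and 2067 in WT libraries. Every eTreg library was below every cTreg library, and the difference was -0.85 ± 0.082 (adjusted p = 1.58e-07) in KO and -0.96 ± 0.082 (adjusted p = 4.23e-08) in WT cells, or -0.45 ± 0.057 (adjusted p = 6.22e-06) and -0.62 ± 0.057 (adjusted p = 1.07e-07) with the offset. Setd1b, a catalytic subunit of a promoter H3K4 complex, had 172, 150.1 and 154 CPM in KO eTreg, against 165, 152 and 162 in WT eTreg. In cTreg Setd1b had 294, 276 and 303 CPM in KO and 283, 305 and 296 in WT libraries. It too was lower in every eTreg library, at -0.88 ± 0.058 (adjusted p = 1.01e-09) in KO and -0.88 ± 0.058 (adjusted p = 7.79e-10) in WT cells, and at -0.29 ± 0.046 (adjusted p = 6.28e-05) and -0.35 ± 0.046 (adjusted p = 7.25e-06) with the offset. Kmt2c, the close relative of Kmt2d, had 662, 577 and 608 CPM in KO eTreg, against 630.4, 579 and 581 in WT eTreg. In cTreg Kmt2c had 553, 441 and 538 CPM in KO and 526, 660.4 and 625 in WT libraries. Of the groups compared, only KO eTreg and KO cTreg did not overlap, with Kmt2c higher in KO eTreg at 0.27 ± 0.095 (adjusted p = 0.0203), a call lost without KO cTreg replicate 2 or KO eTreg replicate 1. That difference turned to -0.090 ± 0.061 (adjusted p = 0.227) with the offset.

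Setd1a, the counterpart of Setd1b, had 110.2, 111 and 111 CPM in KO eTreg, against 119, 108 and 112 in WT eTreg. In cTreg Setd1a had 129.7, 133 and 144 CPM in KO and 159, 149.9 and 155 in WT libraries. KO cTreg was below WT cTreg in every library, and Setd1a was the 1 H3K4 writer called for CD25 loss in cTreg, falling at -0.19 ± 0.052 (adjusted p = 0.0105). It fell in eTreg at -0.29 ± 0.052 (adjusted p = 8.58e-05) in KO and -0.46 ± 0.052 (adjusted p = 5.58e-07) in WT cells, but the offset gave 0.20 ± 0.046 (adjusted p = 0.00149) in KO and -0.0010 ± 0.046 (adjusted p = 0.987) in WT cells. Kmt2e, which has a SET domain but no known histone methyltransferase activity, had 651, 626 and 633 CPM in KO eTreg, against 585, 567 and 556 in WT eTreg. In cTreg Kmt2e had 470.2, 426 and 472 CPM in KO and 432, 471 and 432 in WT libraries. It was higher in every eTreg library, at 0.48 ± 0.052 (adjusted p = 3.31e-07) in KO and 0.35 ± 0.052 (adjusted p = 1.16e-05) in WT cells, or 0.13 ± 0.043 (adjusted p = 0.0153) and 0.018 ± 0.044 (adjusted p = 0.749) with the offset. The KO effect of Kmt2e in eTreg was 0.16 ± 0.052 (adjusted p = 0.0772), and 0.15 (adjusted p = 0.00895) with the replicate block. Exons of Kmt2e overlap those of Srpk2 on the opposite strand over 972 bases.

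Among the other SET-domain genes, Setd5 and Setd3 rose with CD25 loss. Setd5, a chromatin protein with a SET domain, had 495, 529.5 and 501 CPM in KO eTreg, against 449, 422 and 431 in WT eTreg. In cTreg Setd5 had 390.1, 390.5 and 406 CPM in KO and 319, 328 and 306 in WT libraries. KO stood above WT in every library of both subsets, at 0.23 ± 0.047 (adjusted p = 0.00716) in eTreg and 0.32 ± 0.048 (adjusted p = 0.000102) in cTreg. Setd5 was also higher in eTreg, at 0.36 ± 0.047 (adjusted p = 2.98e-06) in KO and 0.45 ± 0.048 (adjusted p = 2.36e-07) in WT cells, with 0.28 ± 0.045 (adjusted p = 7.41e-05) and 0.37 ± 0.046 (adjusted p = 3.18e-06) under the offset. Setd3, which methylates actin, had 121, 119 and 117 CPM in KO eTreg, against 108, 111 and 109 in WT eTreg. In cTreg Setd3 had 89.1, 97.3 and 99.5 CPM in KO and 84.9, 81.1 and 80.1 in WT libraries. Its KO libraries were above its WT libraries in both subsets, but only cTreg passed, at 0.22 ± 0.051 (adjusted p = 0.00418), against 0.12 ± 0.049 (adjusted p = 0.172) in eTreg. The rise of Setd3 in eTreg was 0.32 ± 0.049 (adjusted p = 2.05e-05) in KO and 0.41 ± 0.050 (adjusted p = 1.21e-06) in WT cells, and 0.21 ± 0.049 (adjusted p = 0.00159) and 0.32 ± 0.049 (adjusted p = 3.2e-05) with the offset.

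Setd2, the writer of trimethylated H3K36, had 454, 440.1 and 439 CPM in KO eTreg, against 405, 403 and 408 in WT eTreg. In cTreg Setd2 had 298, 263 and 281 CPM in KO and 263, 283 and 284 in WT libraries. It was higher in every eTreg library, at 0.66 ± 0.051 (adjusted p = 6.32e-09) in KO and 0.55 ± 0.051 (adjusted p = 5.45e-08) in WT cells, while the offset left 0.18 ± 0.040 (adjusted p = 0.00111) and 0.087 ± 0.040 (adjusted p = 0.0767). Its KO effect in eTreg was 0.13 ± 0.051 (adjusted p = 0.149), and 0.12 (adjusted p = 0.0342) with the replicate block. Setd4, whose values are given above, was lower in eTreg at -0.38 ± 0.12 (adjusted p = 0.00937) in KO and -0.90 ± 0.12 (adjusted p = 4.9e-06) in WT cells. With the offset it gave 0.11 ± 0.12 (adjusted p = 0.467) and -0.44 ± 0.12 (adjusted p = 0.00666). Setd6, known to methylate the NF-kappaB subunit RelA, had 10.1, 9.45 and 10.6 CPM in KO eTreg, against 9.14, 11.7 and 12.7 in WT eTreg. In cTreg Setd6 had 12.7, 12.98 and 14.1 CPM in KO and 15.8, 15.4 and 15.1 in WT libraries. It fell in eTreg at -0.40 ± 0.12 (adjusted p = 0.00601) in KO and -0.46 ± 0.12 (adjusted p = 0.00193) in WT cells, and stood at 0.098 ± 0.12 (adjusted p = 0.504) and 0.0057 ± 0.12 (adjusted p = 0.971) with the offset.

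Of the arginine methyltransferases, 3 of the 7 tested (42.9%) fell in KO cTreg, Prmt3, Prmt7 and Prmt1, beside 12.6% of all genes. None was called in KO eTreg, beside 6.65% of all genes. Prmt3, which acts on a ribosomal protein, had 48.3, 37.6 and 45.3 CPM in KO eTreg, against 40.99, 44.7 and 42.03 in WT eTreg. In cTreg Prmt3 had 45.6, 44.6 and 37.7 CPM in KO and 52.1, 53.6 and 60.4 in WT libraries. The WT cTreg libraries were higher than all 9 others. Prmt3 fell in KO cTreg at -0.38 ± 0.094 (adjusted p = 0.00667), and its KO effect in eTreg was 0.036 ± 0.092 (adjusted p = 0.894). Its subset difference was -0.38 ± 0.093 (adjusted p = 0.00168) in WT cells, with -0.53 ± 0.087 (adjusted p = 6.54e-05) under the offset, and 0.036 ± 0.093 (adjusted p = 0.745) in KO cells, with -0.14 ± 0.088 (adjusted p = 0.191) under the offset.

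Prmt7, which monomethylates arginine, had 10.2, 10.3 and 10.2 CPM in KO eTreg, against 12.2, 12.04 and 11.2 in WT eTreg. In cTreg Prmt7 had 18.3, 17.98 and 16.8 CPM in KO and 23.4, 22.7 and 22.1 in WT libraries. All KO libraries were below the WT libraries of the same subset, at -0.36 ± 0.083 (adjusted p = 0.00351) in cTreg and -0.21 ± 0.088 (adjusted p = 0.189) in eTreg, where the call was not made. Prmt7 fell in eTreg at -0.79 ± 0.086 (adjusted p = 3.69e-07) in KO and -0.95 ± 0.085 (adjusted p = 3.23e-08) in WT cells, or -0.52 ± 0.085 (adjusted p = 7.41e-05) and -0.68 ± 0.083 (adjusted p = 2.59e-06) with the offset. Prmt1, the main asymmetric dimethylating enzyme, had 34.5, 36.6 and 36.3 CPM in KO eTreg, against 35.2, 41.6 and 36.4 in WT eTreg. In cTreg Prmt1 had 49.9, 53.4 and 53.3 CPM in KO and 65.04, 56.1 and 59.9 in WT libraries. Its KO effect in cTreg, -0.21 ± 0.072 (adjusted p = 0.0409), lost its call without any 1 of the KO cTreg libraries, WT cTreg replicate 1 or 3, or replicate 3 of either eTreg group, with adjusted p up to 0.177. In eTreg it fell at -0.54 ± 0.073 (adjusted p = 4.19e-06) in KO and -0.67 ± 0.073 (adjusted p = 3.09e-07) in WT cells, and at -0.17 ± 0.069 (adjusted p = 0.0492) and -0.31 ± 0.069 (adjusted p = 0.000982) with the offset. Prmt2 had 15.5, 14.5 and 15.8 CPM in KO eTreg, against 16.2, 12.5 and 15.9 in WT eTreg. In cTreg Prmt2 had 10.2, 10.6 and 10.9 CPM in KO and 9.06, 11.5 and 12.3 in WT libraries. It was the 1 arginine writer called higher in eTreg, at 0.53 ± 0.12 (adjusted p = 0.00103) in KO and 0.44 ± 0.13 (adjusted p = 0.0047) in WT cells. The offset raised this to 1.0 ± 0.12 (adjusted p = 4.15e-06) and 0.88 ± 0.12 (adjusted p = 1.33e-05).

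The paired acetyltransferases Crebbp and Ep300, which acetylate histones at enhancers and also Foxp3, were not called for CD25 loss without the replicate block. Crebbp had 492, 437 and 454 CPM in KO eTreg, against 439.5, 424 and 443 in WT eTreg. In cTreg Crebbp had 523, 467 and 491 CPM in KO and 454, 503 and 506 in WT libraries. Its KO and WT groups overlapped in both subsets, at 0.018 ± 0.059 (adjusted p = 0.855) in cTreg and 0.082 ± 0.058 (adjusted p = 0.493) in eTreg. Ep300 had 445, 432 and 428 CPM in KO eTreg, against 395, 383 and 393 in WT eTreg. In cTreg Ep300 had 387, 393 and 419.8 CPM in KO and 337, 374 and 381 in WT libraries. Its KO libraries lay above its WT libraries in both subsets without passing, at 0.14 ± 0.052 (adjusted p = 0.0635) in cTreg and 0.16 ± 0.052 (adjusted p = 0.089) in eTreg. With the block in the 6 eTreg libraries Ep300 was called in eTreg, at 0.15 (adjusted p = 0.012). Subset differences were 0.12 ± 0.052 (adjusted p = 0.047) in KO and 0.10 ± 0.052 (adjusted p = 0.0927) in WT cells for Ep300, and -0.099 ± 0.058 (adjusted p = 0.138) and -0.16 ± 0.059 (adjusted p = 0.0192) for Crebbp. The KO call of Ep300 was lost without any 1 of 10 libraries, and the WT call of Crebbp without WT cTreg replicate 2 or 3 or WT eTreg replicate 2. With the offset they were 0.079 ± 0.043 (adjusted p = 0.126) and 0.053 ± 0.043 (adjusted p = 0.302) for Ep300, and -0.12 ± 0.046 (adjusted p = 0.0422) and -0.19 ± 0.046 (adjusted p = 0.00205) for Crebbp.

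**Figure D3:**
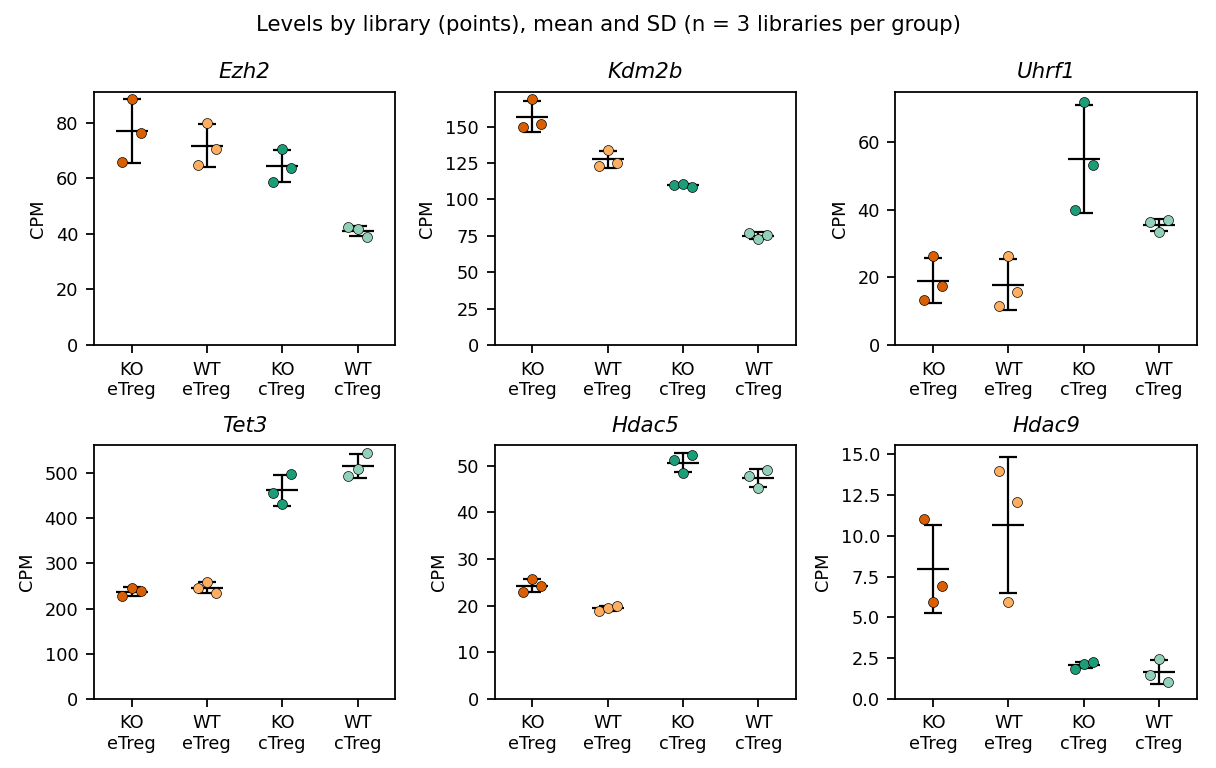
CPM in each library of Ezh2, Kdm2b, Uhrf1, Tet3, Hdac5 and Hdac9, with the mean and SD of the 3 libraries of each group. For Ezh2 and Kdm2b the WT cTreg libraries are the lowest, Tet3 and Hdac5 part the subsets with cTreg higher, and Hdac9 is near 0 in cTreg.

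Among the lysine demethylases, Kdm2b and Kdm2a rose with CD25 loss in both subsets. Kdm2b (mm10 chromosome 5, 122870665 to 122989823), which removes methyl groups from H3K36 and brings a variant Polycomb complex to CpG islands, had 150.1, 169 and 152 CPM in KO eTreg, against 123, 134 and 125 in WT eTreg. In cTreg Kdm2b had 109.7, 111 and 109 CPM in KO and 77.3, 72.95 and 75.4 in WT libraries. The 4 groups did not overlap, with KO eTreg highest, then WT eTreg, KO cTreg and WT cTreg. Kdm2b rose with CD25 loss at 0.30 ± 0.053 (adjusted p = 0.00254) in eTreg and 0.54 ± 0.056 (adjusted p = 2.61e-06) in cTreg. It rose in eTreg at 0.52 ± 0.054 (adjusted p = 2.02e-07) in KO and 0.76 ± 0.056 (adjusted p = 2.72e-09) in WT cells, and at 0.70 ± 0.054 (adjusted p = 1.98e-08) and 0.93 ± 0.056 (adjusted p = 5.5e-10) with the offset. Its exons overlap those of Rnf34 over 627 bases and of A930024E05Rik over 199 bases, both on the opposite strand.

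Kdm2a, the relative of Kdm2b, had 359, 369 and 353 CPM in KO eTreg, against 323, 307 and 324 in WT eTreg. In cTreg Kdm2a had 338, 323 and 340.00 CPM in KO and 289, 302 and 279 in WT libraries. KO was above WT in every library of both subsets, at 0.18 ± 0.047 (adjusted p = 0.0279) in eTreg and 0.20 ± 0.047 (adjusted p = 0.00405) in cTreg. The eTreg call was lost whenever 1 of the 6 eTreg libraries was left out, with adjusted p of 0.0547 to 0.135. Its subset difference was small, at 0.11 ± 0.047 (adjusted p = 0.0431) in KO and 0.13 ± 0.047 (adjusted p = 0.0176) in WT cells, and of the other sign with the offset, at -0.11 ± 0.044 (adjusted p = 0.0412) and -0.085 ± 0.044 (adjusted p = 0.113). Without the offset the call was lost on leaving out 1 of 9 libraries in KO and 1 of 3 in WT cells.

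Of the H3K9 demethylases, Kdm4a rose in KO cTreg, while Kdm4b and Kdm3b fell. Kdm4a had 139, 140.1 and 138 CPM in KO eTreg, against 136, 144 and 129 in WT eTreg. In cTreg Kdm4a had 161, 167 and 165 CPM in KO and 137, 136 and 147 in WT libraries. KO cTreg was the highest group in every library, at 0.24 ± 0.051 (adjusted p = 0.0022), and the eTreg groups overlapped, at 0.025 ± 0.050 (adjusted p = 0.858). In KO cells Kdm4a was lower in eTreg, at -0.24 ± 0.050 (adjusted p = 0.000357), and in WT cells the groups overlapped, at -0.032 ± 0.051 (adjusted p = 0.585). With the offset these were 0.034 ± 0.047 (adjusted p = 0.567) and 0.23 ± 0.048 (adjusted p = 0.000493). Kdm4b had 45.1, 45.7 and 44.05 CPM in KO eTreg, against 52.98, 50.2 and 46.6 in WT eTreg. In cTreg Kdm4b had 81.5, 75.7 and 76.6 CPM in KO and 94.8, 87.2 and 92.4 in WT libraries. The KO libraries were below the WT libraries in both subsets, at -0.23 ± 0.057 (adjusted p = 0.0061) in cTreg and -0.15 ± 0.059 (adjusted p = 0.155) in eTreg. Kdm4b was lower in eTreg at -0.79 ± 0.058 (adjusted p = 3.52e-09) in KO and -0.87 ± 0.058 (adjusted p = 9.37e-10) in WT cells, which shrank to -0.12 ± 0.054 (adjusted p = 0.0743) and -0.24 ± 0.053 (adjusted p = 0.00106) with the offset. Kdm3b had 242, 252 and 268 CPM in KO eTreg, against 247, 273 and 245 in WT eTreg. In cTreg Kdm3b had 299, 312 and 314 CPM in KO and 392, 330.3 and 401 in WT libraries. It fell in KO cTreg at -0.28 ± 0.068 (adjusted p = 0.00552), with no overlap, and stood at -0.0044 ± 0.068 (adjusted p = 0.984) in eTreg. It was lower in eTreg at -0.28 ± 0.068 (adjusted p = 0.0014) in KO and -0.55 ± 0.068 (adjusted p = 1.4e-06) in WT cells, or -0.095 ± 0.071 (adjusted p = 0.271) and -0.38 ± 0.071 (adjusted p = 0.000306) with the offset.

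The H3K27 demethylases Kdm6a and Kdm6b did not pass for CD25 loss without the replicate block, while with the block in the 6 eTreg libraries Kdm6a was at 0.12 (adjusted p = 0.0439) and Kdm6b at -0.13 (adjusted p = 0.0471) in eTreg. Kdm6a had 252, 239.5 and 246 CPM in KO eTreg, against 228, 224 and 222 in WT eTreg. In cTreg Kdm6a had 164, 153 and 156 CPM in KO and 150.3, 155 and 150.00 in WT libraries. Its KO effect was 0.053 ± 0.045 (adjusted p = 0.426) in cTreg and 0.13 ± 0.044 (adjusted p = 0.0997) in eTreg. Every eTreg library was above every cTreg library, at 0.64 ± 0.045 (adjusted p = 1.79e-09) in KO and 0.57 ± 0.045 (adjusted p = 7.54e-09) in WT cells, and the offset took nearly all of it, to 0.089 ± 0.039 (adjusted p = 0.0645) and 0.050 ± 0.040 (adjusted p = 0.294). Kdm6b had 165, 169.5 and 167 CPM in KO eTreg, against 184, 187 and 173 in WT eTreg. In cTreg Kdm6b had 210.2, 192 and 208 CPM in KO and 228, 197 and 238 in WT libraries. Its KO effect was -0.12 ± 0.062 (adjusted p = 0.172) in cTreg and -0.12 ± 0.062 (adjusted p = 0.325) in eTreg. It was lower in every eTreg library within a genotype, at -0.28 ± 0.062 (adjusted p = 0.000623) in KO and -0.29 ± 0.062 (adjusted p = 0.000577) in WT cells. With the offset it was called the other way, at 0.39 ± 0.062 (adjusted p = 5.26e-05) and 0.34 ± 0.062 (adjusted p = 0.000174).

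Among the deacetylases, Hdac4 was called for CD25 loss in both subsets, Hdac5 in eTreg, and Hdac6 and Hdac2 in cTreg. Hdac4, a class IIa enzyme that shuttles between nucleus and cytoplasm, had 77.6, 68.2 and 72.3 CPM in KO eTreg, against 63.9, 59.4 and 60.5 in WT eTreg. In cTreg Hdac4 had 85.1, 78.9 and 88.8 CPM in KO and 64.7, 71.2 and 69.3 in WT libraries. KO was above WT in every library of both subsets, at 0.25 ± 0.062 (adjusted p = 0.0233) in eTreg and 0.30 ± 0.063 (adjusted p = 0.00192) in cTreg. The eTreg call was lost without replicate 2 or 3 of WT eTreg or replicate 1 or 3 of KO eTreg, with adjusted p of 0.0732 to 0.107. The subset difference of Hdac4 was -0.21 ± 0.062 (adjusted p = 0.00553) in KO and -0.16 ± 0.064 (adjusted p = 0.0324) in WT cells, lost there without WT cTreg or WT eTreg replicate 2 or 3, and -0.12 ± 0.053 (adjusted p = 0.0726) and -0.074 ± 0.054 (adjusted p = 0.26) with the offset.

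Hdac5 (mm10 chromosome 11, 102194432 to 102230166), of the same class, had 22.98, 25.7 and 24.1 CPM in KO eTreg, against 18.9, 19.5 and 19.97 in WT eTreg. In cTreg Hdac5 had 51.4, 48.4 and 52.3 CPM in KO and 47.8, 45.3 and 49.02 in WT libraries. KO was above WT in every eTreg library, at 0.32 ± 0.069 (adjusted p = 0.00952), while the cTreg groups overlapped, at 0.097 ± 0.064 (adjusted p = 0.291). Hdac5 was lower in eTreg at -1.06 ± 0.066 (adjusted p = 4.91e-10) in KO and -1.28 ± 0.068 (adjusted p = 5.89e-11) in WT cells, and still at -0.38 ± 0.067 (adjusted p = 0.000128) and -0.65 ± 0.069 (adjusted p = 4.9e-07) with the offset. The difference between its 2 KO effects did not pass, at 0.22 ± 0.094 (adjusted p = 0.23).

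Hdac9 (mm10 chromosome 12, 34047580 to 34917095), whose loss is known to strengthen mouse Tregs, was scarce and had 11.03, 5.93 and 6.93 CPM in KO eTreg, against 13.99, 5.95 and 12.1 in WT eTreg. In cTreg Hdac9 had 1.85, 2.13 and 2.24 CPM in KO and 1.44, 2.45 and 0.999 in WT libraries. Every eTreg library was above every cTreg library, while the KO and WT libraries of each subset overlapped and spread widely. Hdac9 rose in eTreg at 1.93 ± 0.38 (adjusted p = 0.000655) in KO and 2.68 ± 0.40 (adjusted p = 6.64e-05) in WT cells, the widest subset gap of any member, and at 1.5 ± 0.38 (adjusted p = 0.00497) and 2.28 ± 0.39 (adjusted p = 0.000366) with the offset. Its KO effects were 0.34 ± 0.47 (adjusted p = 0.645) in cTreg and -0.41 ± 0.32 (adjusted p = 0.545) in eTreg. Hdac7, a class IIa enzyme of T cells, had 157, 164 and 145 CPM in KO eTreg, against 161, 186 and 152 in WT eTreg. In cTreg Hdac7 had 275, 264 and 261 CPM in KO and 267, 254 and 267 in WT libraries. Its KO effects were 0.021 ± 0.065 (adjusted p = 0.843) in cTreg and -0.099 ± 0.065 (adjusted p = 0.452) in eTreg. Hdac7 was lower in every eTreg library, at -0.78 ± 0.065 (adjusted p = 1.57e-08) in KO and -0.66 ± 0.065 (adjusted p = 1.09e-07) in WT cells, and the offset took this to -0.076 ± 0.066 (adjusted p = 0.349) and 0.0035 ± 0.067 (adjusted p = 0.968).

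Hdac6, a cytoplasmic enzyme that acts on tubulin and also on Foxp3, had 16.4, 15.1 and 16.8 CPM in KO eTreg, against 18.3, 18.6 and 18.9 in WT eTreg. In cTreg Hdac6 had 28.2, 26.8 and 22.2 CPM in KO and 33.9, 31.9 and 31.04 in WT libraries. KO was below WT in both subsets, at -0.33 ± 0.087 (adjusted p = 0.00987) in cTreg, lost without KO cTreg replicate 3 (adjusted p = 0.063), and -0.21 ± 0.090 (adjusted p = 0.202) in eTreg. It was lower in eTreg at -0.68 ± 0.089 (adjusted p = 3.41e-06) in KO and -0.80 ± 0.088 (adjusted p = 4.08e-07) in WT cells, and at -0.30 ± 0.092 (adjusted p = 0.0103) and -0.44 ± 0.090 (adjusted p = 0.000565) with the offset. Hdac2, a class I enzyme of nuclear corepressors, had 63.9, 65.96 and 61.6 CPM in KO eTreg, against 69.6, 70.8 and 74.1 in WT eTreg. In cTreg Hdac2 had 49.4, 42.8 and 44.8 CPM in KO and 52.3, 54.7 and 55.9 in WT libraries. KO was below WT in both subsets, at -0.25 ± 0.062 (adjusted p = 0.00601) in cTreg and -0.16 ± 0.059 (adjusted p = 0.116) in eTreg, where the block gave -0.17 (adjusted p = 0.0399). Hdac2 was higher in every eTreg library, at 0.48 ± 0.061 (adjusted p = 1.86e-06) in KO and 0.40 ± 0.060 (adjusted p = 1.63e-05) in WT cells, and changed sign with the offset, at -0.059 ± 0.057 (adjusted p = 0.395) and -0.10 ± 0.057 (adjusted p = 0.141). Hdac10, known as a polyamine deacetylase, had 24.9, 20.2 and 22.9 CPM in KO eTreg, against 25.9, 23.2 and 21.5 in WT eTreg. In cTreg Hdac10 had 47.3, 43.9 and 45.9 CPM in KO and 43.2, 50.9 and 48.7 in WT libraries. Its eTreg libraries were all below its cTreg libraries. The difference was -1.01 ± 0.089 (adjusted p = 2.59e-08) in KO and -1.02 ± 0.089 (adjusted p = 2.36e-08) in WT cells, or -0.48 ± 0.087 (adjusted p = 0.000169) and -0.52 ± 0.087 (adjusted p = 7.71e-05) with the offset.

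Of the sirtuins, the NAD-dependent deacylases, only Sirt2 was called for CD25 loss. Sirt2, a mostly cytoplasmic enzyme, had 49.9, 56.4 and 52.03 CPM in KO eTreg, against 48.3, 45.9 and 44.5 in WT eTreg. In cTreg Sirt2 had 62.99, 74.5 and 67.7 CPM in KO and 54.3, 57.96 and 55.01 in WT libraries. KO was above WT in every library of both subsets, at 0.30 ± 0.068 (adjusted p = 0.00376) in cTreg and 0.19 ± 0.068 (adjusted p = 0.112) in eTreg, where it did not pass. It was lower in eTreg at -0.38 ± 0.067 (adjusted p = 9.25e-05) in KO and -0.27 ± 0.069 (adjusted p = 0.00208) in WT cells, and stood at -0.037 ± 0.064 (adjusted p = 0.645) and 0.053 ± 0.066 (adjusted p = 0.511) with the offset. Sirt1, which deacetylates Foxp3, had 54.96, 53.5 and 49.4 CPM in KO eTreg, against 52.98, 51.8 and 55.3 in WT eTreg. In cTreg Sirt1 had 41.05, 30.8 and 32.2 CPM in KO and 31.9, 39.6 and 34.6 in WT libraries. Its KO and WT groups overlapped, at -0.034 ± 0.10 (adjusted p = 0.836) in cTreg and -0.021 ± 0.093 (adjusted p = 0.939) in eTreg. Sirt1 was higher in eTreg at 0.60 ± 0.097 (adjusted p = 3.5e-05) in KO and 0.59 ± 0.097 (adjusted p = 4.7e-05) in WT cells, and at 0.21 ± 0.089 (adjusted p = 0.0566) and 0.22 ± 0.090 (adjusted p = 0.0469) with the offset.

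The nuclear sirtuins Sirt6 and Sirt7, both GC-rich, were lower in eTreg. Sirt6 had 14.3, 16.9 and 16.6 CPM in KO eTreg, against 14.7, 14.99 and 14.7 in WT eTreg. In cTreg Sirt6 had 27.6, 28.1 and 26.6 CPM in KO and 26.7, 25.4 and 27.6 in WT libraries. Sirt7, found in the nucleolus, had 65.1, 64.6 and 65 CPM in KO eTreg, against 72.8, 62.7 and 64.3 in WT eTreg. In cTreg Sirt7 had 126, 126 and 123 CPM in KO and 109, 119 and 114 in WT libraries. All eTreg libraries of both genes were below all cTreg libraries. For Sirt7 the difference was -0.95 ± 0.057 (adjusted p = 3.11e-10) in KO and -0.77 ± 0.057 (adjusted p = 3.07e-09) in WT cells, falling in size to -0.23 ± 0.058 (adjusted p = 0.00348) and -0.100 ± 0.059 (adjusted p = 0.157) with the offset. For Sirt6 it was -0.78 ± 0.080 (adjusted p = 1.53e-07) in KO and -0.85 ± 0.081 (adjusted p = 7.38e-08) in WT cells, and -0.091 ± 0.079 (adjusted p = 0.344) and -0.19 ± 0.080 (adjusted p = 0.0488) with the offset.

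Length and GC content bear on the subset difference as follows. The 69 tested members have a median transcript of 4373 nt and 51.7% GC, against 3007 nt and 50.01% over the 12337 tested genes with a transcript. Across the 69 members the log2 fold change of eTreg over cTreg fell with transcript GC, with a Pearson correlation of -0.69 in KO and -0.64 in WT cells, against -0.51 and -0.41 over all genes. The slope per 10 GC points was -0.78 in KO and -0.81 in WT cells for the members, and -0.78 and -0.73 for all genes. With length the correlation over the members was 0.087 in KO and 0.095 in WT cells, against 0.181 and 0.169 over all genes. An offset for length alone still moved the members. Their median log2 difference went from -0.0076 to -0.206 in KO and from -0.090 to -0.207 in WT cells. Length and GC together took up 0.476 of the variance of the members' log2 fold change in KO and 0.410 in WT cells, against 0.268 and 0.177 over all genes. These are correlations across genes, which share libraries and are not independent replicates.

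The pattern was in every library. Relative to the mean of each gene over all libraries, log2 CPM fell with GC in all 6 eTreg libraries, with slopes of -0.308 to -0.400 per 10 GC points over all genes, and rose in all 6 cTreg libraries, with slopes of 0.315 to 0.404. Slopes around that mean balance out by construction, so a fall in eTreg brings a rise in cTreg. Which subset carries the trend cannot be told from them. In WT cells, 6 of the 8 members in the lowest of 5 GC bins were called higher in eTreg and 0 lower, while 1 of the 12 in the highest bin was higher and 11 lower. All genes followed the same course, with 75.9% higher and 3.69% lower in the lowest bin, and 9.93% higher and 72.6% lower in the highest. The longest of 5 length bins of genes, which was 51.3% higher and 25.6% lower in WT eTreg, held 29 of the 69 members, of which 10 were higher and 11 lower. KO effects followed GC less, with a Pearson correlation with GC over the members of -0.14 in cTreg and -0.10 in eTreg, and Spearman correlations of -0.17 and -0.22. Over all genes the Spearman correlation was 0.015 in cTreg and -0.14 in eTreg. In KO eTreg, 3.93% of all genes were called higher and 1.94% lower in the lowest GC bin, against 1.74% and 3.93% in the highest. In the shortest length bin 1.3% were higher and 3.97% lower, against 5.88% and 4.05% in the longest. That longest bin held 4 of the members called higher in KO eTreg. The Rn45s share parted the subsets as well, and its part in the GC pattern was not tested.

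**Figure D4:**
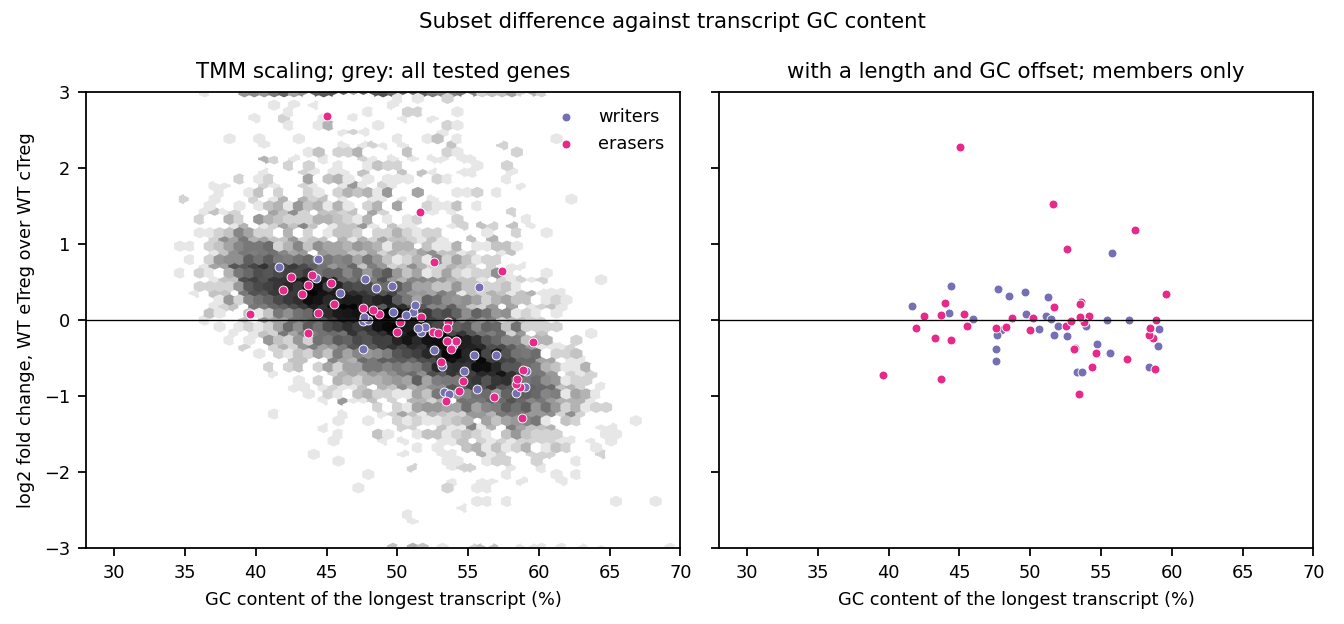
Log2 fold change of WT eTreg over WT cTreg against transcript GC content, on the left from TMM scaling with all tested genes in grey and values beyond 3 in either direction drawn at the edge, and on the right for the members with the length and GC offset. The coloured writers and erasers both follow the falling grey cloud on the left, with a correlation of -0.64. On the right the slope is nearly gone, as the offset is fitted across genes to take it out.

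With an offset for length and GC in each library, the subset calls among members went down to 40 in KO cells (17 higher, 23 lower) and 38 in WT cells (15 higher, 23 lower), against 55 and 51 without it. All genes went down alike, to 55.6% called in KO and 56.5% in WT cells. In KO cells 29 members kept their call and direction, 20 lost the call and 5 gained one. In WT cells 29 kept it, 20 lost it and 7 gained one. The median size of the log2 difference was 0.18 in KO and 0.21 in WT cells, against 0.38 and 0.41 without the offset. Sign changed for 14 of the 55 called members in KO cells and for 9 of the 51 in WT cells. The members called in opposite directions by the 2 fits were Kdm5a and Kdm6b in both genotypes, and Kdm1b, Kdm2a, Kdm7a and Setd1a in KO cells. Kdm5a, an H3K4 demethylase with a long, GC-poor transcript, stood at 0.38 ± 0.046 (adjusted p = 1.3e-06) in KO and 0.34 ± 0.046 (adjusted p = 4.56e-06) in WT cells, and at -0.22 ± 0.052 (adjusted p = 0.00193) and -0.24 ± 0.053 (adjusted p = 0.000876) with the offset.

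Kdm6b and Kdm7a mark the ends of this range, so a coding stretch of each is shown, 120 bases from the middle of the coding sequence of the longest GENCODE vM21 transcript, 5′ to 3′.
Kdm7a coding bases 1351 to 1470 (mm10 chromosome 6, 39136623 to 39206789, minus strand): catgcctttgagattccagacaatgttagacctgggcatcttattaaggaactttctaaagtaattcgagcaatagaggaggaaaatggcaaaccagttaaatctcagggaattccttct
Kdm6b coding bases 2404 to 2523 (mm10 chromosome 11, 69398508 to 69413675, minus strand): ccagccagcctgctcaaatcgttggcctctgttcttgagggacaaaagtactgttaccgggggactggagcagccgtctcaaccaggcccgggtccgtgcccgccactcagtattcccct
The Kdm7a stretch is 39.2% GC in a transcript of 39.62% GC, and the Kdm6b stretch is 60.8% GC in a transcript of 59.56%, the lowest and highest transcript GC among the tested members. Kdm7a, which demethylates H3K9 and H3K27, had 247, 249 and 249.7 CPM in KO eTreg, against 226, 233 and 229.8 in WT eTreg. In cTreg Kdm7a had 223, 188 and 220.4 CPM in KO and 215, 223 and 216 in WT libraries. Its subset difference was 0.24 ± 0.056 (adjusted p = 0.00106) in KO and 0.073 ± 0.056 (adjusted p = 0.25) in WT cells, and -0.62 ± 0.052 (adjusted p = 4.64e-08) and -0.72 ± 0.052 (adjusted p = 4.72e-09) with the offset.

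Members whose subset call and direction stood in both fits and both genotypes were, higher in eTreg, Kdm2b, Hdac9, Prmt2, Suz12, Eed, Ezh1, Setd5 and Setd3, with Hdac11 and Kdm4d at low counts. Hdac11 rose at 0.50 ± 0.19 (adjusted p = 0.0283) in KO and 0.65 ± 0.19 (adjusted p = 0.00602) in WT cells and Kdm4d at 1.03 ± 0.25 (adjusted p = 0.00159) and 1.42 ± 0.28 (adjusted p = 0.000223), and both gained in size with the offset. The KO call of Hdac11 was lost without any 1 of 5 of the 6 KO libraries, all but KO eTreg replicate 2. Lower in eTreg in both fits were Tet3, Kmt2d, Setd1b, Hdac5, Hdac6, Hdac10, Prmt7 and Prmt1, with Prmt5, Kdm8 and Kmt2b. Prmt5, the main symmetric dimethylating enzyme, stood at -0.39 ± 0.080 (adjusted p = 0.000366) in KO and -0.40 ± 0.080 (adjusted p = 0.000268) in WT cells, and at -0.20 ± 0.081 (adjusted p = 0.0472) and -0.21 ± 0.081 (adjusted p = 0.0347) with the offset. Kmt2b stood at -0.71 ± 0.056 (adjusted p = 8.43e-09) and -0.68 ± 0.056 (adjusted p = 1.37e-08), and at -0.10 ± 0.043 (adjusted p = 0.0498) and -0.12 ± 0.044 (adjusted p = 0.0231), but at 0.041 and 0.023, not called, with an offset for GC alone.

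**Figure D5:**
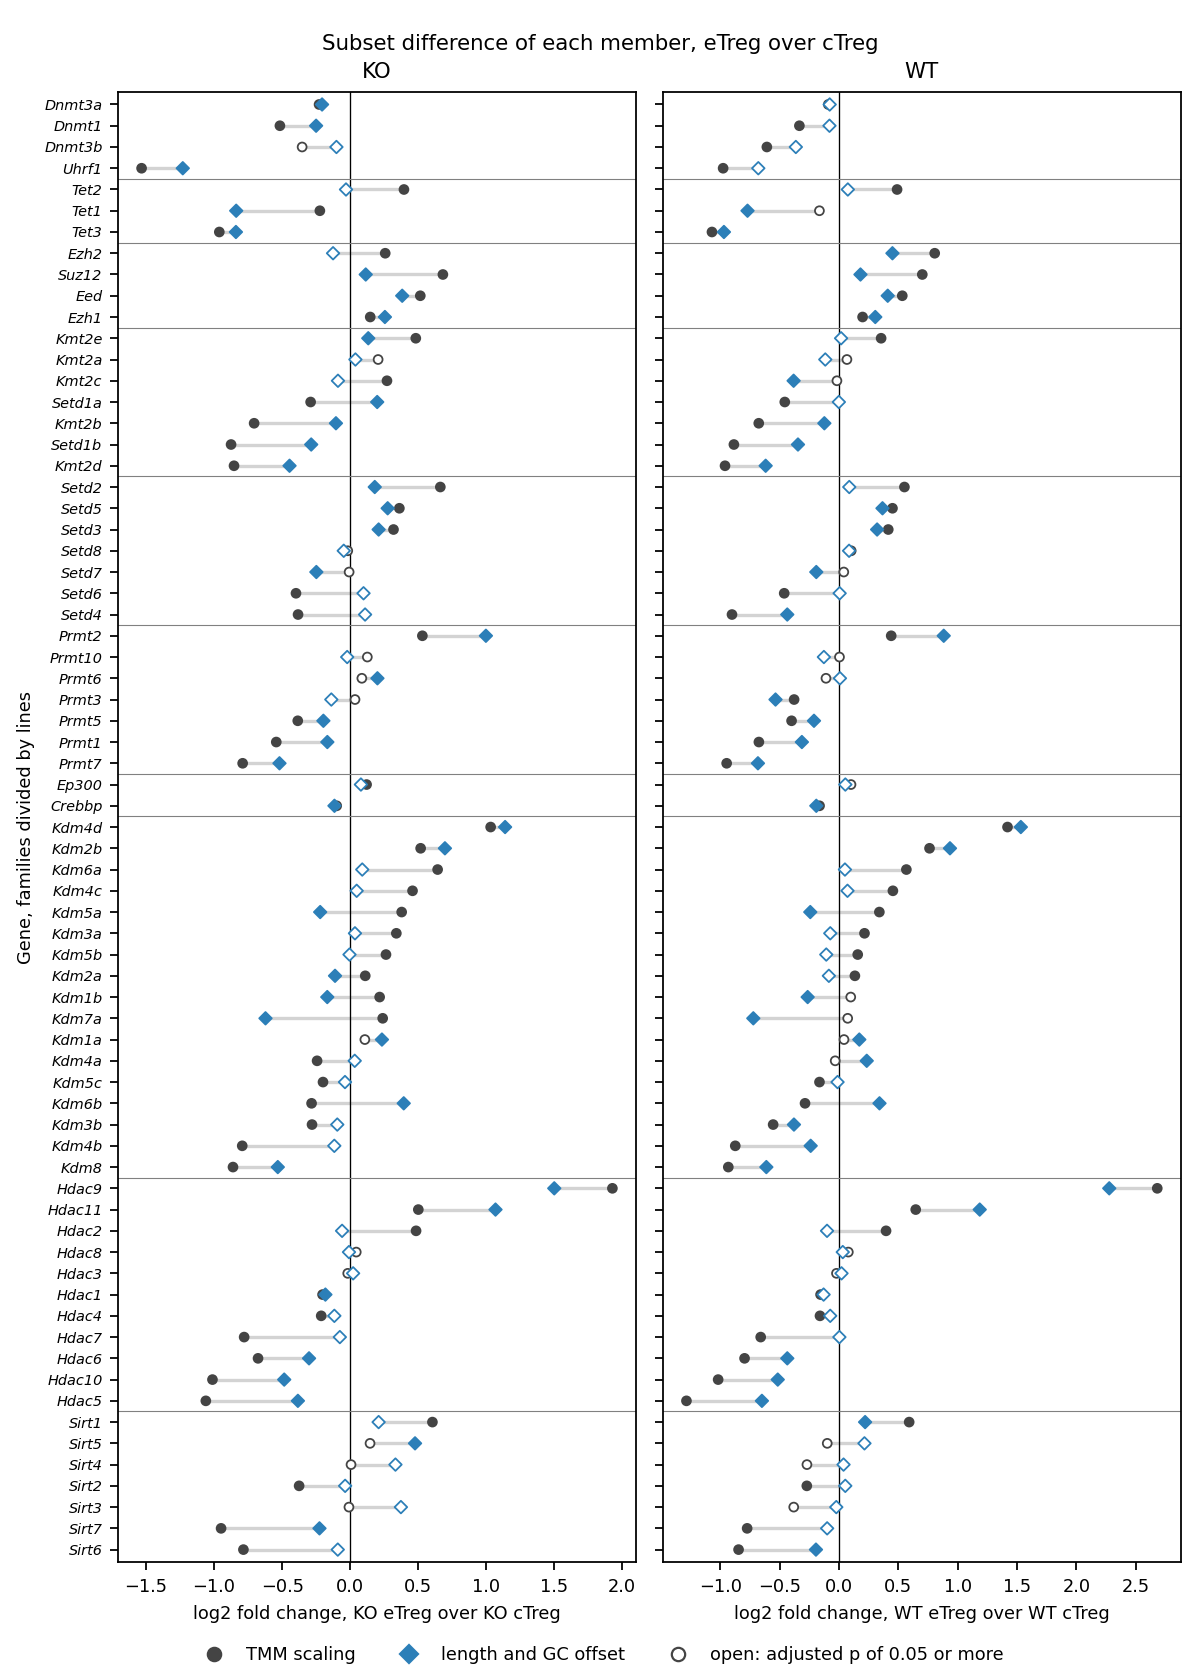
Log2 fold change of eTreg over cTreg for each tested member, KO cells on the left and WT cells on the right with their own x ranges, from TMM scaling (black circles) and with the length and GC offset (blue diamonds); open marks were not called. Tet3, Kdm2b and Hdac9 keep their side, while Kdm6b and Kdm7a move across or away from 0.

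The KO effects moved little with the same offset. In cTreg 19 members were called, all 17 of the earlier calls with Kmt2c, at -0.30 ± 0.062 (adjusted p = 0.00161), and Tet3 added. In eTreg 5 were called, of which 4 were shared; Kdm2a was lost, at 0.15 ± 0.044 (adjusted p = 0.0521), and Hdac2 was added, at -0.20 ± 0.055 (adjusted p = 0.0391). Without the block or the offset, the members with no call in any of the 4 comparisons between groups were Hdac3, Hdac8, Kdm1a, Kmt2a, Prmt10, Prmt6, Setd7, Setd8, Sirt3, Sirt4 and Sirt5. Their log2 fold changes lay between -0.38 and 0.50, and the highest, of Sirt4 in KO eTreg, was 0.50 ± 0.17 (adjusted p = 0.092). With the replicate block in the 6 eTreg libraries Kmt2a was called, at 0.17 (adjusted p = 0.0163). With the offset Kdm1a was called between subsets, at 0.23 ± 0.052 (adjusted p = 0.00121) in KO and 0.17 ± 0.053 (adjusted p = 0.0108) in WT cells. So was Setd7, at -0.25 ± 0.049 (adjusted p = 0.000378) and -0.19 ± 0.049 (adjusted p = 0.0031) in the same order. In KO cells alone the offset also gave calls for Sirt5, at 0.48 ± 0.13 (adjusted p = 0.00399), and Prmt6, at 0.20 ± 0.073 (adjusted p = 0.0267).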

How the data were processed

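Total RNA of sorted Tregs was purified by Qiagen RNeasy, and KAPA RNA HyperPrep with RiboErase made the libraries, per the labels' protocols. The deposited values are raw read counts per gene symbol for each of the 12 libraries. The submitters' processing notes name HISAT2 2.2.1, Cell Ranger and the build mm10, with no role stated. No source used here gives the counting tool, the annotation or the strand setting, so exons shared with an overlapping gene are uncertain. Exon overlaps, lengths and GC come from the longest basic GENCODE vM21 transcript, and promoters from RefSeq on GRCm38.p6.

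In R 4.3.3, genes were kept by filterByExpr and scaled by TMM in edgeR 4.0.16. The quasi-likelihood F-test with robust dispersions (common BCV, the biological coefficient of variation, 0.0768) was fitted over all 12 libraries, two-sided, with Benjamini-Hochberg adjustment over 12461 genes in each of 5 contrasts. Each SE is the absolute log2 fold change over the root of its F value, and CPM carry the TMM scaling. The offset was a spline with 5 degrees of freedom on log2 length and on GC, per library, for the 12337 genes with a transcript. It was fitted to these same counts, so it takes out any difference that follows length or GC, whatever its source. Steps were tested on simulated counts.

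Same-numbered KO and WT eTreg libraries had correlated deviations from their group means (0.257, 0.341 and 0.166), against -0.315 to 0.0707 for unlike numbers; this is a hint from the data, as the labels name no shared batch. In the other comparisons not all pairs exceeded 0.1. No 2 libraries of a group were duplicates, with chi-squared per degree of freedom of at least 3.74.

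Alternatives were DESeq2 size factors, library size without Rn45s, the DESeq2 1.42.0 Wald test, limma-voom (limma 3.58.1), no filter or CPM of 1 or more in 3 or more libraries, a replicate block, 6 libraries only, the offset, and leaving out each library. Offsets for GC or length alone, and the block with the offset in the 6 eTreg libraries, were added after seeing the data. The members, families and lists were chosen with earlier results of these data known. By rule, within each family up to 2 called members per direction and comparison at a mean log2 CPM of 3 or more are given in full, with 13 members of known role; others named were chosen after their values were seen.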

Additional observations from a re-analysis of the deposited data

Results flagged for a closer look

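The KO effect in eTreg minus the KO effect in cTreg was called for 5 of 118 tested related chromatin genes (4.24%) and 0 of the 69 members, beside 3.8% of all genes, by edgeR's quasi-likelihood test. Whsc1 differed by -0.70 ± 0.13 (adjusted p = 0.00627) on the log2 scale, with a KO effect of 0.24 in eTreg and 0.94 in cTreg. Aebp2 differed by -0.40 ± 0.069 (adjusted p = 0.00285), with 0.17 in eTreg and 0.56 in cTreg. Ehmt2, with 125, 129 and 125 CPM in KO eTreg, 127, 122 and 119 in WT eTreg, 217, 228 and 237 in KO cTreg and 169, 174 and 178 in WT cTreg, differed by -0.35 ± 0.068 (adjusted p = 0.00657). Wdr82 differed by 0.27 ± 0.071 (adjusted p = 0.0417), with a smaller fall in eTreg (-0.28) than in cTreg (-0.55), and lost this call in 13 of 21 alternatives (adjusted p up to 0.117). Whsc1l1 (Nsd3), a relative of Whsc1, had 526, 490.4 and 544 CPM in KO eTreg, 463, 477 and 486 in WT eTreg, 494, 439 and 472 in KO cTreg and 518, 548 and 549 in WT cTreg. It differed by 0.33 ± 0.077 (adjusted p = 0.0198), a call lost with adjusted p up to 0.0714 when replicate 3 of WT cTreg or KO eTreg, replicate 2 of KO cTreg, or replicate 1 of WT eTreg was left out. The calls of Whsc1, Aebp2 and Ehmt2 held in the 21 alternatives run for each.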

How the results depend on the processing

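Under all alternatives with KO cTreg against WT cTreg, 13 to 22 members were called, against 17. With the replicate block in the 6 cTreg libraries, where the numbers do not pair the libraries, 13 were called (6 higher, 7 lower), and leaving out each library gave 15 to 20. For KO against WT eTreg, the block in the 6 eTreg libraries gave 12, and with the length and GC offset 9, against 5 without the block; leaving out each library gave 3 to 6, with 3 when replicate 2 or 3 of WT eTreg or replicate 1 or 3 of KO eTreg was absent. The subset difference gave 50 to 54 calls in KO and 46 to 52 in WT cells on leaving out each library. With GC alone in the offset it gave 33 in KO (19 higher, 14 lower) and 33 in WT cells (17 higher, 16 lower), and with length alone 51 (17 higher, 34 lower) and 54 (16 higher, 38 lower). With the replicate block over 12 libraries and the offset it gave 36 in KO cells. Of the members called without an offset, GC alone changed the sign of 13 in KO and 10 in WT cells, and length alone of 6 and 3. The difference between the KO effects gave 1 call, Ezh2, with library size without Rn45s, with the DESeq2 Wald test, and with the replicate block over 12 libraries with or without the offset, and 0 to 3 on leaving out each library. Library size without Rn45s gave 4 calls in KO eTreg, with 301 higher and 546 lower over all genes, against 405 and 424, and 27 higher and 28 lower in KO and 26 higher and 25 lower in WT cells between subsets. Over single members 7283 values kept direction and side of the threshold, 168 lost the call and 90 gained one. Another 272, called neither way, changed sign under 22 settings, and 53 changed sign where at least 1 of the fits made a call.

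Every change of sign among these 53 came with the length and GC offset. In KO cells the offset alone, and then with the replicate block, gave -0.13 and -0.13 for Ezh2, -0.059 and -0.059 for Hdac2, -0.17 and -0.17 for Kdm1b, -0.11 and -0.11 for Kdm2a, 0.034 and 0.034 for Kdm4a, -0.22 and -0.22 for Kdm5a, -0.0048 and -0.0026 for Kdm5b, 0.39 and 0.39 for Kdm6b, -0.62 and -0.62 for Kdm7a, -0.090 and -0.089 for Kmt2c, 0.20 and 0.20 for Setd1a, 0.11 and 0.11 for Setd4, 0.10 and 0.10 for Setd6, and -0.031 and -0.031 for Tet2. In WT cells they gave -0.10 and -0.10 for Hdac2, -0.26 and -0.26 for Kdm1b, -0.0851 and -0.0848 for Kdm2a, -0.073 and -0.071 for Kdm3a, 0.23 and 0.23 for Kdm4a, -0.24 and -0.24 for Kdm5a, -0.11 and -0.11 for Kdm5b, 0.34 and 0.34 for Kdm6b, -0.72 and -0.72 for Kdm7a, 0.0057 and 8.8e-05 for Setd6, -0.19 and -0.19 for Setd7, and 0.053 and 0.054 for Sirt2. Hdac7 in WT cells changed sign with the offset alone, at 0.0035. The cause of these changes was not tested beyond the offset itself. Members under 10 CPM, such as Hdac9, Hdac11, Kdm4d and Sirt3, had SEs of up to 0.57 on the log2 scale, so small differences in them were not detectable at this depth.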

Other observations

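Related chromatin genes were counted in 8 lists, beside 27.5% of all genes called in KO cTreg and 6.65% in KO eTreg. Of 18 tested lysine or arginine writers outside the families above, 2 rose and 4 fell in KO cTreg, and 0 rose and 2 fell in KO eTreg. Whsc1 (Nsd2), which dimethylates H3K36, had 176, 212 and 174 CPM in KO eTreg, against 145, 179 and 151 in WT eTreg. In cTreg Whsc1 had 126, 142 and 129 CPM in KO and 69.1, 72.5 and 65.4 in WT libraries. Its WT cTreg libraries were the lowest of the 12, and it rose in KO cTreg at 0.94 ± 0.093 (adjusted p = 6.46e-06), with 0.24 ± 0.087 (adjusted p = 0.133) in eTreg. Smyd2, which also methylates p53, had 9.93, 9.77 and 7.87 CPM in KO eTreg, against 11.99, 14.5 and 14.4 in WT eTreg. In cTreg Smyd2 had 9.86, 9.21 and 9.30 CPM in KO and 18.9, 17.9 and 21.4 in WT libraries. It fell in both subsets with no overlap, at -0.57 ± 0.12 (adjusted p = 0.00672) in eTreg and -1.04 ± 0.12 (adjusted p = 7.16e-06) in cTreg, and Smyd5 fell at -0.39 ± 0.070 (adjusted p = 0.00291) and -0.30 ± 0.074 (adjusted p = 0.00581). Ehmt2, a writer of dimethylated H3K9, rose in KO cTreg at 0.39 ± 0.048 (adjusted p = 1.56e-05).

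Among 21 partners of the Polycomb complexes 2 rose and 0 fell in KO cTreg, and 1 rose in KO eTreg. They were Aebp2, an accessory subunit of PRC2, at 0.56 ± 0.050 (adjusted p = 6.01e-07) in cTreg and 0.17 ± 0.048 (adjusted p = 0.0448) in eTreg, and Jarid2, another such subunit, at 0.27 ± 0.051 (adjusted p = 0.00089) in cTreg. Among 12 partners of the H3K4 complexes 1 rose and 2 fell in KO cTreg, and 0 rose and 1 fell in KO eTreg. Wdr82, a subunit of the Setd1a and Setd1b complexes, had 201, 182 and 184 CPM in KO eTreg, against 219, 235 and 236 in WT eTreg. In cTreg Wdr82 had 239, 237 and 249.8 CPM in KO and 358, 349 and 357 in WT libraries. It fell at -0.28 ± 0.050 (adjusted p = 0.00255) in eTreg and -0.55 ± 0.050 (adjusted p = 7.49e-07) in cTreg, with no overlap of KO and WT libraries. Hcfc1 stood at 0.19 ± 0.051 (adjusted p = 0.0125) and Ash2l at -0.16 ± 0.050 (adjusted p = 0.0265) in cTreg.

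Of 13 other acetyltransferases 0 rose and 2 fell in KO cTreg and 0 rose and 1 fell in KO eTreg. Kat2a, a catalytic subunit of the SAGA complex, had 41.3, 36.3 and 33.8 CPM in KO eTreg, against 45.6, 42.2 and 45.3 in WT eTreg. In cTreg Kat2a had 61.1, 58.3 and 60.7 CPM in KO and 79.2, 82.8 and 84.7 in WT libraries. It fell at -0.26 ± 0.069 (adjusted p = 0.033) in eTreg and -0.45 ± 0.067 (adjusted p = 8.21e-05) in cTreg. Kat2b fell in cTreg at -0.19 ± 0.060 (adjusted p = 0.0286). Of 11 genes of DNA methylation reading and repair 2 rose and 0 fell in KO cTreg, and 1 rose in KO eTreg. Gadd45b, linked to DNA demethylation, had 22.2, 21.7 and 20.4 CPM in KO eTreg, against 16.3, 16.6 and 16.6 in WT eTreg. In cTreg Gadd45b had 16.3, 14.4 and 16.8 CPM in KO and 10.7, 6.42 and 6.84 in WT libraries. It rose in KO cTreg at 0.99 ± 0.14 (adjusted p = 6.97e-05), with 0.38 ± 0.13 (adjusted p = 0.0858) in eTreg. Uhrf2, the relative of Uhrf1, rose at 0.18 ± 0.050 (adjusted p = 0.0419) in eTreg and 0.37 ± 0.053 (adjusted p = 5.7e-05) in cTreg.

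Of 21 deacetylase corepressor genes 1 rose and 0 fell in KO cTreg, Mta2 at 0.20 ± 0.055 (adjusted p = 0.0127), and 0 were called in KO eTreg. Of 6 other erasers 1 rose in KO cTreg, Phf8 at 0.18 ± 0.056 (adjusted p = 0.0269), and 0 were called in KO eTreg. Of 16 genes that supply methyl donors, acetyl groups or NAD, 3 rose and 2 fell in KO cTreg, and 0 rose and 1 fell in KO eTreg. Nmnat3, an NAD synthesis enzyme of mitochondria, fell at -0.54 ± 0.15 (adjusted p = 0.0364) in eTreg and -0.49 ± 0.15 (adjusted p = 0.0238) in cTreg. In cTreg Mat2a, which makes the methyl donor, stood at -0.28 ± 0.078 (adjusted p = 0.0146) and Ahcy, which clears its product, at 0.35 ± 0.099 (adjusted p = 0.0148). Without 1 of the 12 libraries, calls were lost for Aebp2, Uhrf2, Kat2a and Nmnat3 in eTreg (adjusted p up to 0.15, 0.135, 0.169 and 0.139) and for Kat2b, Phf8, Mta2, Mat2a, Ahcy, Hcfc1, Ash2l and Nmnat3 in cTreg (up to 0.124, 0.127, 0.0658, 0.0683, 0.0777, 0.0685, 0.0964 and 0.122). Those of Smyd2, Smyd5 and Wdr82 held without any 1 library in both subsets.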
